A study of Mus musculus with 6 samples.

Results

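The translation initiation and elongation factors of LT/ST-HSCs were taken by gene symbol, as all names that begin with Eif and a digit from 1 to 6 or with Eef and 1 or 2, pseudogenes left out. The rule uses no measured value, and it found 67 of 26216 gene names, of which 63 were expressed highly enough to be tested. By factor, 4 tested members belong to eIF1, 4 to eIF2, 5 to its exchange factor eIF2B, 13 to eIF3, 11 to eIF4, 3 to eIF5, 1 to eIF6, 4 to eEF1 and 1 to eEF2. The 3 Eif4ebp repressors and the 4 Eif2ak kinases were kept apart. A further 10 tested members carry such a symbol although their product is no core factor, among them the Argonaute genes Eif2c1 to Eif2c4.

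Translation starts when a small ribosomal subunit, loaded with the initiator tRNA by eIF2 and held in an open state by eIF1, eIF1A and the large scaffold eIF3, is brought to the capped end of an mRNA by eIF4 and scans to a start codon. eIF5 and eIF5B then complete the ribosome, after which eEF1A, recharged by the eEF1B exchange complex, delivers each aminoacyl-tRNA and eEF2 moves the ribosome on by a codon. The Eif4ebp proteins block cap binding until mTOR phosphorylates them, and the Eif2ak kinases slow initiation by phosphorylating eIF2 under stress. Hematopoietic stem cells are known for a low rate of protein synthesis compared with the progenitors they give rise to.

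The samples were LT/ST-HSCs sorted from mixed bone marrow chimeras at week 6, in 3 replicates per genotype. Ltbr-/- cells came from CD45.2 donors of 10 to 13 weeks that lack the lymphotoxin-β receptor in all their cells, and the controls from CD45.1 (Ly5.1) donors of 7 to 13 weeks, both transplanted as LSKs into Ly5.1/Ly5.2 mice after lethal irradiation. Cells of 6 chimeras were pooled to the 3 replicates, so a replicate is a pool and not a mouse, and genotype, CD45 form and donor age cannot be told apart. The files give a signal per gene that was made from a regularized log, a log2 value scaled between samples and drawn towards the mean for weak genes, so that fold changes of weak genes are understated.

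The label of the samples was checked first. Ltbr had a signal of 23.1 to 26.4 in the Ltbr-/- replicates and of 522 to 564 in the Ly5.1 replicates. All 15 listed HSC markers were present, but 14 were below 0 in log2 fold change (median −0.15). Ly6a, Meis1 and Cd34 fell at the adjusted p, and Gata2 rose (0.22, adjusted p = 0.0402). The summed signal of the 15 was 21790 to 22310 in Ltbr-/- and 23470 to 24280 in Ly5.1. Of 9 T or NK cell genes 8 were under 30 in every sample, Cd3d, Cd3e, Cd4 and Cd8a among them. The groups also differed in lists for other cells. Of 11 B cell genes 6, Pax5, Ebf1 and Ms4a1 among them, were under 30 in every sample, but Ighm (log2 fold change −1.04) and Igkc (−1.21) were called lower, 2 of the 8 such calls in all, and Cd79a (0.62) was called higher, with summed signals of 1467 to 1603 against 2316 to 2488. All 12 neutrophil genes were below 0 in log2 fold change and 10 of them fell, with a summed signal of 45630 to 46470 in Ltbr-/- and 59680 to 64590 in Ly5.1. The mast cell and basophil list was mixed: its sum of 7533 to 8104 against 4140 to 4727 was led by Cma1 (1.32) and Cpa3 (0.56), which rose, while Prss34 fell (−0.41), 4 of the 7 tested genes were below 0, and Tpsb2, Tpsab1 and Gzmb were under 30 in every sample. Summed erythroid genes were at 4900 to 5244 against 3475 to 3819, led by Hba-a1 and Hba-a2, with Alas2 under 30. Of the 9 tested erythroid genes 2 were called higher, 7 did not pass and 3 were below 0 (median 0.09). The megakaryocyte list was mixed as well, with a sum of 14000 to 14800 against 11880 to 13200. Of its 6 tested genes 4 were below 0 (median −0.04), 1 rose and 1 fell at the adjusted p, and none was called. Ppbp, Gp6 and Gp1bb were under 30. The monocyte or macrophage sums overlapped, but single genes moved in both directions. Emr1 was called higher (0.83, adjusted p = 5.75e-09) and Cd68 rose (0.28, adjusted p = 0.0353), while Lyz2 fell (−0.42, adjusted p = 8.29e-05). Of the 9 tested genes of this list 7 were below 0. The part of these cells in the results on translation factors was not tested, and in such bulk RNA fewer cells of a type and less RNA per cell cannot be told apart.

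With the samples as deposited, though not when centred on the ribosomal protein genes as described further on, translation factor genes were on balance higher in Ltbr-/- LT/ST-HSCs, but unevenly: the elongation factor eEF1 and part of eIF3 rose together, while the cap-binding machinery of eIF4 and eIF2 did not. At the thresholds of the study, an adjusted p below 0.05 together with a fold of 1.5 or more, 7 of the 63 members were called higher, and 2.72% of all 13108 tested genes were. The 7 were Eef1b2, Eef1d and Eef1g of eEF1, Eif3f, Eif3h and Eif3k of eIF3, and the repressor Eif4ebp1. No member was called lower by limma, with 6 lower at an unadjusted p under 0.05 and 0 called by the per-gene model without moderation, and 0.061% of all tested genes were called lower. At the adjusted p alone 23 members rose, 3 fell and 37 did not pass, against a background of 10.6% of tested genes higher and 4.18% lower. In 31 members every Ltbr-/- value lay above every Ly5.1 value and in 6 below, as in 17% and 13.5% of all tested genes. Of the members past the adjusted p in either direction 17 lost it without moderation and 13 without a filter. The median log2 fold change of the members was 0.12 and that of all tested genes −0.01.

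Calls were more frequent among strongly expressed genes. The 27 members among the 1310 genes with the highest mean signal held 6 of the 7 calls, which is 22.2%, and 14.9% of these 1310 genes were called higher. At the adjusted p alone 13 of the 27 rose, or 48.1%, against 31% of the 1310 genes. The direction depends on the scaling, since a scaling that sets the 81 ribosomal protein genes equal between samples by their median (called centring on these genes hereafter) shifted the median of all tested genes to −0.89 and that of the members to −0.76, with no member called higher. The members lay 0.13 above the median of all tested genes with or without the centring, which follows from shifting every gene by an equal amount. In the plot of change against level, high members such as Eef1g and Eif3f lay among the ribosomal protein genes, of which 73 of 81 were called higher.

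**Figure D1:**
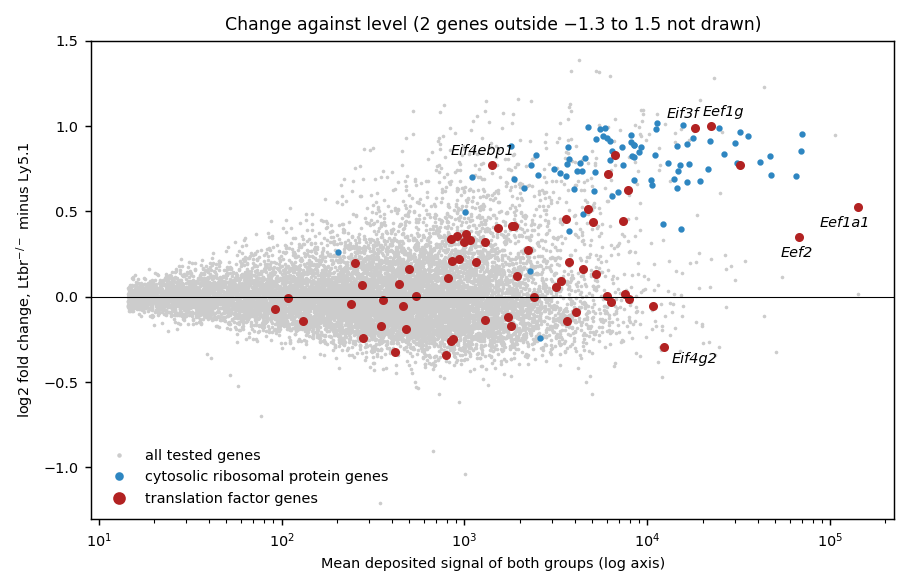
Log2 fold change (Ltbr-/- minus Ly5.1, vertical axis) against the mean deposited signal of both groups (log axis) for all 13108 tested genes (grey), the 81 cytosolic ribosomal protein genes (blue) and the 63 translation factor genes (red). The members spread from Eef1g at 0.999 to Eif2s3y at −0.34, with the samples as deposited; centred on the ribosomal protein genes all points move down and no member is called higher.

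**Figure D2:**
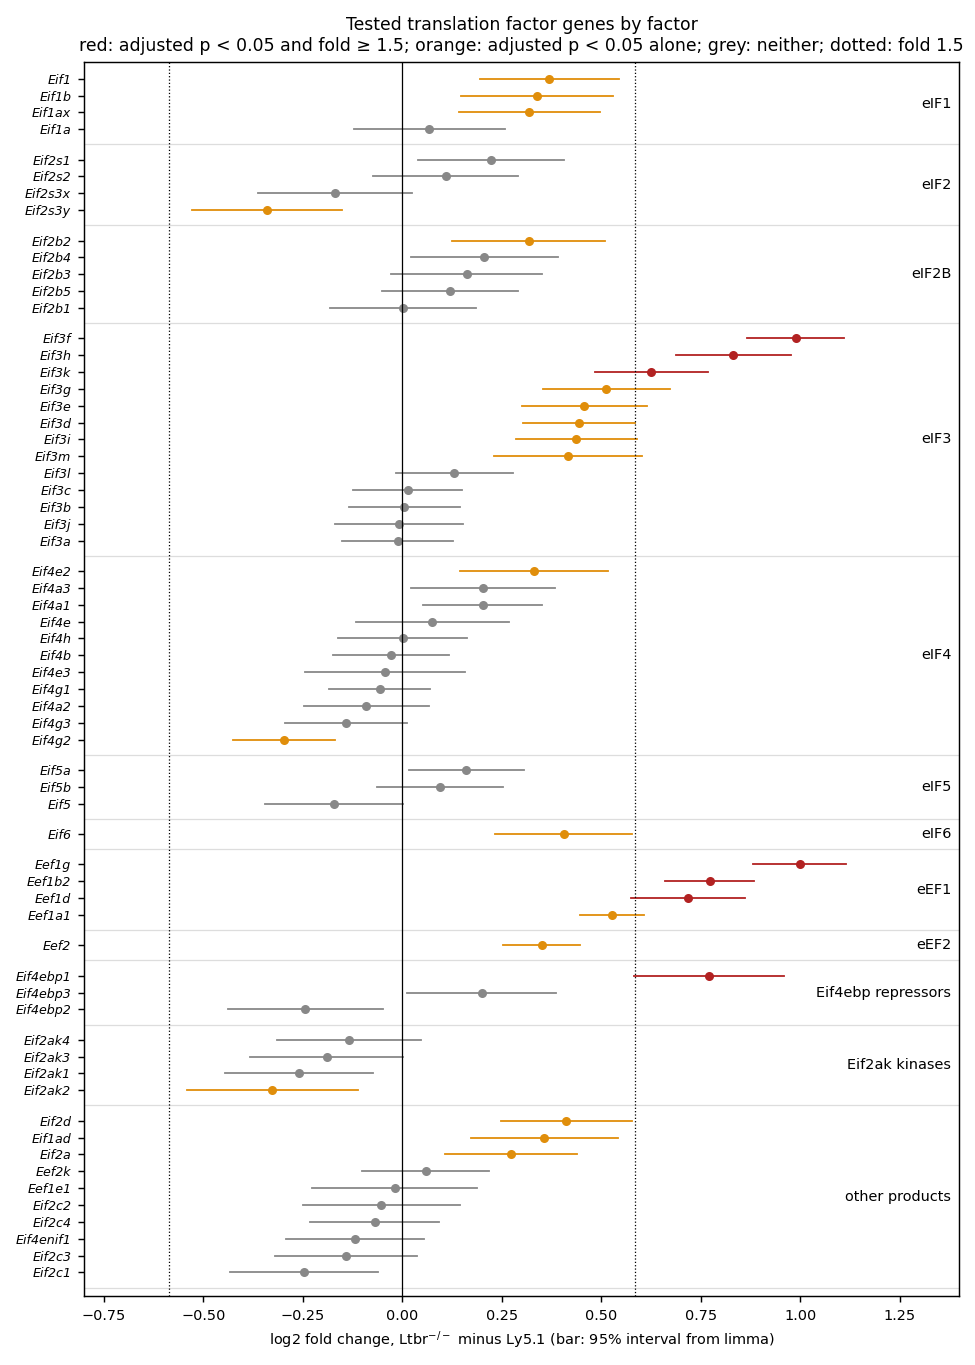
Log2 fold change (Ltbr-/- minus Ly5.1) of the 63 tested members with its 95% interval from limma, grouped by factor and sorted within each. Red marks the 7 members past both thresholds, orange the other members past the adjusted p and grey the 37 that did not pass; the dotted lines stand at a fold of 1.5, and after centring on ribosomal protein genes the 7 red members are no longer called.

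Of the 4 eIF1 members, which keep the small subunit scanning, 3 rose by a moderate amount, with a group median of 0.33, or −0.55 when centred on the ribosomal protein genes. Eif1, which guards start codon selection, had signals of 1117, 1126 and 1197 in Ltbr-/- replicates 1 to 3 and of 891, 896 and 876 in Ly5.1 replicates 1 to 3. The groups were apart by far more than their spread, and Eif1 rose by 0.37 (standard error 0.09, adjusted p = 0.00202). Its paralogue Eif1b rose by 0.34 (adjusted p = 0.0108) and the X-linked eIF1A gene Eif1ax by 0.32 (adjusted p = 0.00982). The autosomal Eif1a had overlapping groups at a much lower signal of 251 to 295 and did not pass (0.07 on the log2 scale, adjusted p = 0.695). A correction for transcript length and GC ended the calls of Eif1 (0.24, adjusted p = 0.0531) and Eif1b (0.16, adjusted p = 0.281), and no filter or no moderation those of Eif1b and Eif1ax (adjusted p of 0.141 to 0.227). Both Eif1b and Eif1ax lost the call when Ltbr-/- replicate 3 was left out (adjusted p = 0.131 and 0.0611), and also without Ly5.1 replicate 2 (0.0661) and without Ly5.1 replicate 1 (0.0941) respectively.

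eIF2, the carrier of the initiator tRNA, showed no common direction, and its median was −0.03, or −0.91 when centred on the ribosomal protein genes. The α subunit gene Eif2s1, whose product is the target of the Eif2ak kinases, was at 974 to 1023 in Ltbr-/- and at 793 to 958 in Ly5.1, without overlap but short of the test (log2 fold change 0.22, adjusted p = 0.0975). The β subunit gene Eif2s2 had overlapping groups and a log2 fold change of 0.11 (adjusted p = 0.47). The γ subunit has an X-linked and a Y-linked gene. Eif2s3y on the Y chromosome had signals of 685, 722 and 681 in Ltbr-/- and of 796, 870 and 984 in Ly5.1. Its groups did not overlap, the Ly5.1 replicates spread more widely, and it fell by 0.34 on the log2 scale (standard error 0.09, adjusted p = 0.00931). The value rests partly on Ly5.1 replicate 3, without which the adjusted p was 0.0709, and the call was lost without a filter (0.168) or moderation (0.156). Its X-linked partner Eif2s3x was at 311 to 347 against 335 to 390.4, with overlapping groups (log2 difference −0.17, adjusted p = 0.252). Other Y-linked genes, Ddx3y, Uty and Kdm5d, were expressed in all samples and did not pass the test. Kdm5d came close, with overlapping groups (−0.27, adjusted p = 0.0556), while Ddx3y was at 0.09 and Uty at −0.06. Xist was under 20 throughout.

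All 5 subunits of eIF2B, which reloads eIF2 with GTP, had log2 fold changes at or above 0, from 0.00 for Eif2b1 to 0.32 for Eif2b2, with a median of 0.16, or −0.72 when centred on the ribosomal protein genes. Only Eif2b2 passed the test (adjusted p = 0.0184). Its 3 Ltbr-/- replicates lay between 1060.2 and 1127, above the Ly5.1 replicates at 1026, 852 and 774. The call was lost when any of 4 replicates was left out, with adjusted p of 0.0504 and 0.0717 without Ltbr-/- replicates 1 and 2 and of 0.0689 and 0.12 without Ly5.1 replicates 2 and 3. It was also lost without a filter (0.312), without moderation (0.251) and with the length and GC correction (0.21 on the log2 scale, adjusted p = 0.138). Eif2b5, the catalytic subunit and the most abundant of the 5, was at 1973 to 2066 against 1655 to 1954 (log2 fold change 0.12, adjusted p = 0.379).

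eIF3, the 13-subunit scaffold of initiation, split into genes that rose strongly, genes that rose moderately and genes that did not pass the test. Of its 13 genes 8 rose, 3 of them past the fold threshold, and the median was 0.44, or −0.44 when centred on the ribosomal protein genes. Eif3f (chr7:108934415-108941942 in GRCm38.p6) had signals of 23128, 23805 and 25608 in Ltbr-/- and of 11793, 11784 and 12987 in Ly5.1. The Ltbr-/- replicates lay far above the Ly5.1 replicates, and the log2 fold change was 0.99 (95% interval 0.87 to 1.11, adjusted p = 1.7e-15). Eif3h (chr15:51786563-51865461), which with Eif3f forms the pair of MPN-domain subunits, had signals of 8560.15, 8346 and 8732 against 4757, 4426 and 5248. The groups lay far apart, with a log2 fold change of 0.83 (0.69 to 0.98, adjusted p = 9.17e-12). Eif3k (chr7:28971372-28981890), a peripheral subunit, was at 8811, 9866 and 9740.1 against 5922, 5853 and 6648. It rose by 0.63 (0.48 to 0.77, adjusted p = 6.69e-09), just past the fold threshold, and stayed under it with the correction for transcript length and GC (0.43) and after quantile normalization.

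A second set of eIF3 genes rose without reaching a fold of 1.5. Eif3g, Eif3e, Eif3d, Eif3i and Eif3m had log2 fold changes of 0.51, 0.46, 0.44, 0.44 and 0.42, with adjusted p from 4.21e-06 to 0.00105 and no overlap between the groups. Eif3g, an RNA-binding subunit, came closest to the fold threshold with 5134, 5592 and 5936 against 3577, 3776 and 4344, and passed it when Ly5.1 replicate 3 was left out. Without moderation all 5 lost the call (adjusted p of 0.0517 to 0.197), and without a filter Eif3g, Eif3i and Eif3m did (0.0664 to 0.22). The remaining 5 genes, Eif3a, Eif3b, Eif3c, Eif3j and Eif3l, did not pass. Eif3a, the largest subunit, had 7468, 7779 and 8555 in Ltbr-/- and 8325, 7959 and 7679.8 in Ly5.1. These values overlapped fully, and the log2 fold change was −0.01 (95% interval −0.15 to 0.13, adjusted p = 0.942), an interval within the fold threshold on both sides. The intervals of Eif3b (−0.13 to 0.15) and Eif3c (−0.12 to 0.15) were as narrow, while quantile normalization moved Eif3a to −0.31 (adjusted p = 0.000448) and Eif3c to −0.27.

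Since the subunits are parts of a single complex, their signals were also set against that of Eif3a within each sample, a choice made after the values were seen and given without a test. The ratio of Eif3f to Eif3a was 3.10, 3.06 and 2.99 in Ltbr-/- and 1.42, 1.48 and 1.69 in Ly5.1. Eif3h to Eif3a stood at 1.02 to 1.15 against 0.556 to 0.683, and Eif3k to Eif3a at 1.14 to 1.27 against 0.711 to 0.866. The ratios of Eif3c and of Eif3b to Eif3a overlapped, at 0.864 to 1.03 against 0.927 to 0.950 and at 0.711 to 0.801 against 0.703 to 0.819. A ratio within a sample does not depend on its scaling, so the unequal change of the subunits holds under any scaling factor per sample. In the structural octamer of eIF3 (Eif3a, c, e, f, h, k, l and m) 5 of 8 genes rose and the median was 0.44, and of the other 5 subunits 3 rose with a median of 0.44, so the genes that rose were found in both. Centred on the ribosomal protein genes, none of them was above 0 past the test.

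**Figure D3:**
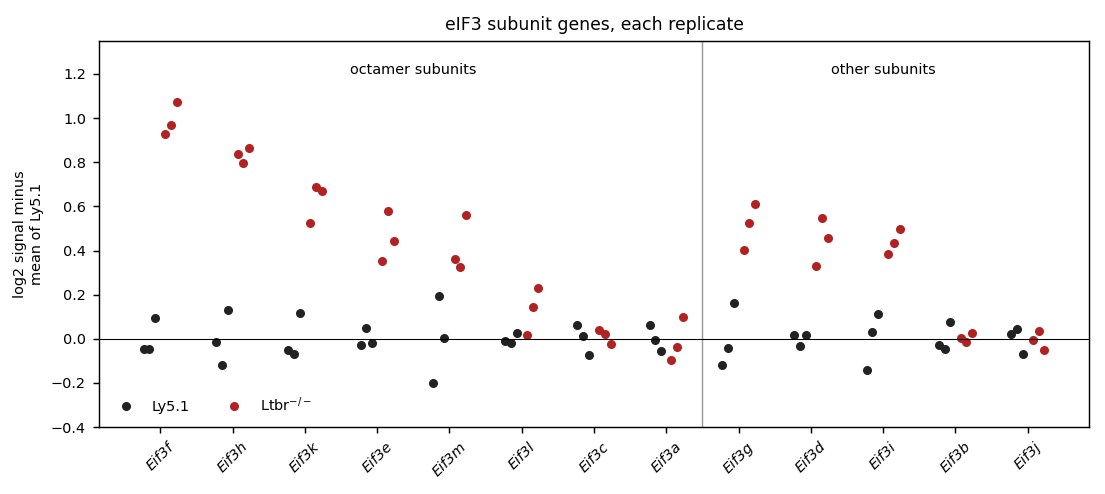
Log2 signal of each replicate minus the mean of the Ly5.1 replicates (vertical axis) for the 13 eIF3 subunit genes, Ly5.1 in black and Ltbr-/- in red, with the octamer subunits left of the line. The Ltbr-/- points of Eif3f, Eif3h and Eif3k stand clear above the Ly5.1 points while those of Eif3a, Eif3b, Eif3c and Eif3j lie among them; centring on the ribosomal protein genes would lower all red points alike.

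Many mRNAs of the translation machinery begin with an unbroken stretch of C and T, the 5′ terminal oligopyrimidine (TOP) motif, through which mTOR and LARP1 set their translation. The start region of eIF3 genes was therefore looked at, from 40 bases before to 20 bases after the annotated start (RefSeq, GRCm38.p6, sense strand, 5′ to 3′). Of the 67 members 53 had such a window, and Eif3h, Eif3e, Eif3i, Eef1g, Eef1d and Eif4ebp1 had none. Shown are the strongest and the weakest riser among the called eIF3 genes that have a window and 3 subunits that did not pass, with the longest run of C and T in capitals.
Eif3f: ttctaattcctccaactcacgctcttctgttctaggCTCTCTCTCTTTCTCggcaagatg
Eif3k: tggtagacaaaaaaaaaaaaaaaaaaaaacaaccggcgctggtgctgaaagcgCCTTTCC
Eif3a: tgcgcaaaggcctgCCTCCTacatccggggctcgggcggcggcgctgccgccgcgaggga
Eif3c: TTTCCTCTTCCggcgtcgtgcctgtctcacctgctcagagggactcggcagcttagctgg
Eif3l: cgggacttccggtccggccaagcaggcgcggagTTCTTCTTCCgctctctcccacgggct
The windows lie at Eif3f at chr7:108934375-108934434, plus strand, Eif3k at chr7:28981869-28981928, minus strand, Eif3a at chr19:60790674-60790733, minus strand, Eif3c at chr7:126566347-126566406, minus strand, Eif3l at chr15:79075183-79075242, plus strand. The longest run within the window covers the start of Eif3f with 15 bases and that of Eif3l with 10. The runs of Eif3k and Eif3c touch an edge of the window, so their full length is not known from it, and no order of lengths was read from these genes. In Eif3b and Eif3j, which did not pass either and are not shown, the longest run measures 5 and 4. A run of at least 8 letters C or T was present in 35.8% of the 53 members, in 55.9% of 68 ribosomal protein genes and in 27.2% of the 27025 genes with a window. Such a match is a description of these letters only and says nothing of how the mRNA starts in these cells.

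eIF4, which binds the cap, unwinds the leader and brings in the small subunit, did not share the rise: 1 of its 11 tested genes rose, 1 fell, 9 did not pass, and the median was −0.03, or −0.91 when centred on the ribosomal protein genes. The cap-binding gene Eif4e was at 433 to 474 in Ltbr-/- and 392 to 466 in Ly5.1, overlapping (log2 fold change 0.08, adjusted p = 0.663). Its relative Eif4e2, a cap-binding protein that represses, rose by 0.33 (adjusted p = 0.0109), with 1107 to 1235 against 880.4 to 1071. That call was lost without Ltbr-/- replicate 2 (adjusted p = 0.0572), Ltbr-/- replicate 3 (0.0605) or Ly5.1 replicate 2 (0.0604), without a filter (0.218) and without moderation (0.193). Eif4e3 was at 220.02 to 288 in all samples with overlapping groups (log2 fold change −0.04, adjusted p = 0.834).

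The scaffold genes of eIF4 lay at or below 0. Eif4g1, the main scaffold, was at 10370.2, 10541 and 10723 in Ltbr-/- and at 11528, 10589.9 and 10809 in Ly5.1, with overlapping groups and a log2 fold change of −0.06 (95% interval −0.18 to 0.07, adjusted p = 0.613). Eif4g2, a relative without the cap-binding site that supports cap-independent initiation, had signals of 10843, 11397 and 10845 against 13361, 14438 and 12878. All Ly5.1 replicates were above all Ltbr-/- replicates, and Eif4g2 fell by 0.30 on the log2 scale (standard error 0.06, adjusted p = 0.000645), a call lost without a filter (0.0608) or moderation (0.079). Eif4g3 was at 3315 to 3603 against 3639.8 to 4030.0, apart but short of the test (log2 fold change −0.14, adjusted p = 0.225). After quantile normalization Eif4g1 (−0.37, adjusted p = 1.5e-05) and Eif4g3 (−0.25, adjusted p = 0.0189) passed as lower, and Eif4g2 passed the fold threshold at −0.64.

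Of the 3 helicase genes none passed the test. Eif4a1 was at 3931 to 4027 in Ltbr-/- and 3387 to 3582 in Ly5.1, without overlap (log2 fold change 0.20, 95% interval 0.05 to 0.35, adjusted p = 0.0585), and passed in 5 alternatives (adjusted p of 0.0269 to 0.0441), namely the replicate block, no filter, a stricter filter, no moderation and robust moderation. Its paralogue Eif4a2 was at 3735 to 4085 against 3867 to 4607, overlapping (−0.09, adjusted p = 0.491). In each Ltbr-/- sample the ratio of Eif4a1 to Eif4a2 was 0.962 to 1.08, and in Ly5.1 it was 0.777 to 0.876. Eif4a3, the helicase of the exon junction complex, did not pass either (0.20, adjusted p = 0.128). Their partners Eif4b and Eif4h had overlapping groups with log2 fold changes of −0.03 and 0.00.

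None of the eIF5 genes, which act in subunit joining and elongation, passed the test. Eif5, the GTPase activator of eIF2, was at 1913, 1597 and 1595 in Ltbr-/- and 1923, 1946 and 1862 in Ly5.1, overlapping by its first Ltbr-/- replicate (log2 fold change −0.17, adjusted p = 0.188). Eif5b, which joins the subunits, did not pass (0.09, adjusted p = 0.472). Eif5a, which relieves stalled ribosomes during elongation and carries hypusine, was at 4586 to 4831 against 4158 to 4226, without overlap but short of the test (0.16, adjusted p = 0.135), while its paralogue Eif5a2 was at 9.4 to 9.9 in every sample and was not tested. The median of the 3 tested eIF5 genes was 0.09, or −0.79 when centred on the ribosomal protein genes. Eif6, which keeps the large subunit from joining too early and acts in its maturation, had signals of 1749, 1665 and 1813 against 1355, 1227 and 1366. Its groups did not overlap, and it rose by 0.41 (standard error 0.08, adjusted p = 0.000529, and 0.0556 without moderation), or lay at −0.48 when centred on the ribosomal protein genes.

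eEF1 had the highest median of all the factors: its 4 tested genes rose, 3 of them past the fold threshold, and the median was 0.75, or −0.14 when centred on the ribosomal protein genes, where the median of all genes was −0.89. Eef1a1 (chr9:78478453-78481724), the carrier of aminoacyl-tRNA and the second most abundant of all names, had signals of 163048, 163929 and 173517 in Ltbr-/- and of 112281, 113890.2 and 121094 in Ly5.1. The groups did not come near each other, and the log2 fold change was 0.53 (95% interval 0.45 to 0.61, adjusted p = 3.74e-13), a fold of 1.44 that stays short of the threshold of 1.5. Its muscle and neuron paralogue Eef1a2 was at 2.77 to 2.87 in every sample and was not tested. The 3 genes of the exchange complex that recharges eEF1A had larger log2 fold changes with the samples as deposited, while after quantile normalization Eef1b2 was at 0.29, near Eef1a1 at 0.26, and Eef1b2 and Eef1d (0.51) were no longer past the fold threshold. Eef1g (chr19:8967041-8978180), its γ subunit, had 28415, 30033 and 30737 against 14355, 14572 and 15724, a log2 fold change of 0.999 (0.88 to 1.11, adjusted p = 3.4e-16). The lowest Ltbr-/- replicate was far above the highest Ly5.1 replicate. Eef1b2 (chr1:63176831-63180486), which catalyses the exchange, had 38893, 39749 and 42229 against 22462, 22820.5 and 25562, and its log2 fold change was 0.77 (0.66 to 0.88, adjusted p = 1.02e-13). Eef1d (chr15:75894796-75909784), a further exchange subunit, had 7262, 7753 and 7808 against 4533, 4446 and 4900.45, and rose by 0.72 (0.58 to 0.86, adjusted p = 2.81e-10). For both genes the lowest Ltbr-/- value was well above the highest Ly5.1 value.

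Within each sample the exchange subunits also rose against the carrier, in ratios chosen after the values were seen. The signal of Eef1g was 0.174 to 0.183 of that of Eef1a1 in Ltbr-/- and 0.128 to 0.130 in Ly5.1. For Eef1b2 the ratio was 0.239 to 0.243 against 0.200 to 0.211, and for Eef1d 0.0445 to 0.0473 against 0.0390 to 0.0405. All 3 ratios were apart between the groups, and they do not depend on a scaling factor per sample.

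Eef2 (chr10:81176631-81182509), the GTPase of translocation, is the fourth most abundant of all names. Its signals were 73735, 75924 and 76113 in Ltbr-/- and 61497, 54207 and 61730.3 in Ly5.1, with Ly5.1 replicate 2 lowest and no overlap. It rose by 0.35 (standard error 0.05, adjusted p = 5.5e-07) with the samples as deposited, but the call was lost without a filter (0.057) or moderation (0.0777), and it lay at −0.23 after quantile normalization and at −0.53 when centred on the ribosomal protein genes. Its ratio to Eef1a1 was 0.439 to 0.463 in Ltbr-/- and 0.476 to 0.548 in Ly5.1, and these ratios did not overlap. The start regions of Eef1a1, Eef1b2 and Eef2, genes known for TOP mRNAs, are shown because their annotated windows differ in the run of C and T (capitals, RefSeq, GRCm38.p6, sense strand, 5′ to 3′).
Eef1a1: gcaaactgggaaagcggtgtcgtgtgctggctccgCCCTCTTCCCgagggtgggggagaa
Eef1b2: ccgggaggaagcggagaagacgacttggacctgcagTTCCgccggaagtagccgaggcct
Eef2: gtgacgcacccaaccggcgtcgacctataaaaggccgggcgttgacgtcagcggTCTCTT
The windows lie at Eef1a1 at chr9:78481705-78481764, minus strand, Eef1b2 at chr1:63176791-63176850, plus strand, Eef2 at chr10:81176591-81176650, plus strand. The longest run measures 10 bases in Eef1a1 and 4 in Eef1b2, while that of Eef2 reaches the end of the window after 6 bases and may be longer.

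**Figure D4:**
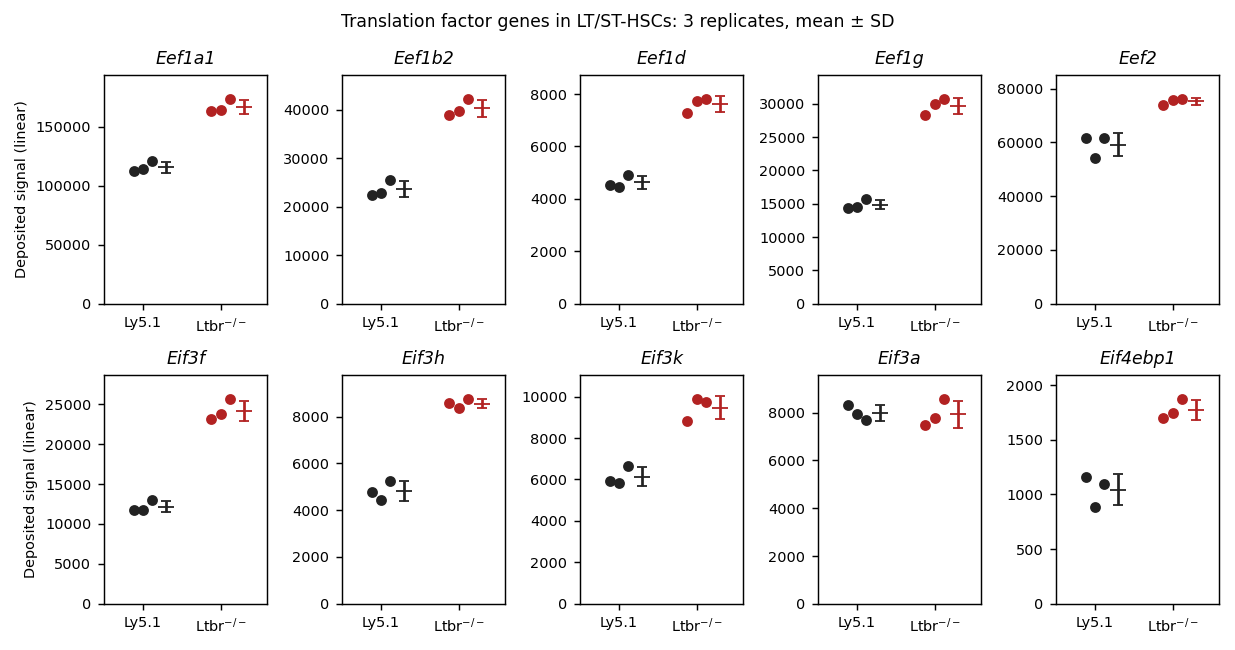
Deposited signal (linear axis from 0) of 10 translation factor genes in the 3 Ly5.1 (black) and 3 Ltbr-/- (red) replicates, with the mean and SD beside the points. In 9 panels all Ltbr-/- points lie above all Ly5.1 points, in Eif3a they overlap. Of the 9, Eef2 is lower in Ltbr-/- after quantile normalization. Centred on the ribosomal protein genes none of the 9 is higher at the adjusted p, and Eef1a1 (−0.35), Eef2 (−0.53) and Eif3k (−0.26) are lower at it.

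Among the repressors of cap binding the 3 genes did not move together. Eif4ebp1 (chr8:27260327-27275656), the main repressor under mTOR control, had signals of 1697, 1746 and 1869 in Ltbr-/- and of 1157, 883 and 1094 in Ly5.1. The groups were well apart although Ly5.1 replicate 2 was low, and Eif4ebp1 rose by 0.77 (95% interval 0.58 to 0.96, adjusted p = 3.54e-08). Without Ly5.1 replicate 2 the log2 fold change was 0.65, and in the model without moderation the call was lost (adjusted p = 0.0639). Eif4ebp2 was at 256, 266 and 244 against 293, 339.6 and 278, lower in each Ltbr-/- replicate but short of the test (−0.24, adjusted p = 0.0852). Eif4ebp3 was at 258 to 279.8 against 219.8 to 244 (0.20, adjusted p = 0.153), and 64.1% of the 76-base windows of its transcript also occur in another gene. The median of the 3 was 0.20, or −0.68 when centred on the ribosomal protein genes. Set against their target Eif4e in the same sample, Eif4ebp1 was 3.87 to 3.94 times as high in Ltbr-/- and 2.04 to 2.79 times in Ly5.1, while Eif4ebp2 was at 0.515 to 0.592 against 0.627 to 0.785.

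All 4 Eif2ak kinases had log2 fold changes below 0, with a median of −0.22, or −1.11 when centred on the ribosomal protein genes, and 1 of them passed. Eif2ak2 (PKR), activated by double-stranded RNA, had signals of 463, 343 and 319 in Ltbr-/- and of 464, 462 and 466 in Ly5.1. The Ly5.1 replicates were almost identical and Ltbr-/- replicate 1 was at their level, so the groups overlapped. Eif2ak2 fell by 0.33 on the log2 scale (standard error 0.11, adjusted p = 0.0323), a call that was lost in 5 of 6 fits without a replicate (adjusted p of 0.141 and 0.262 without Ltbr-/- replicates 2 and 3, and of 0.069, 0.08 and 0.0537 without Ly5.1 replicates 1, 2 and 3), without a filter (0.473), without moderation (0.351) and with the length and GC correction (0.0696). Eif2ak1, the kinase controlled by heme, was at 755 to 772 against 824 to 1015, without overlap (−0.26, adjusted p = 0.0511). It passed as lower with the stricter filter (0.0365), after quantile normalization (0.0362) and without Ly5.1 replicate 1 (0.0218). Eif2ak3 (PERK), the kinase of endoplasmic reticulum stress, and Eif2ak4 (GCN2), that of amino acid shortage, had overlapping groups with −0.19 (adjusted p = 0.19) and −0.13 (adjusted p = 0.351).

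Of the 10 tested members with other products 3 rose and none fell past the test, with a median of −0.04. Eif2d, a factor of tRNA delivery and ribosome recycling apart from eIF2, was at 2048, 2118 and 2053 against 1538, 1616 and 1520.2, and rose by 0.41 (adjusted p = 0.000243). Eif1ad rose by 0.36 (adjusted p = 0.00524) and Eif2a, an initiator tRNA carrier unrelated to the eIF2 subunits, by 0.27 (adjusted p = 0.0195). Eif1ad lost the call without Ltbr-/- replicate 3 (adjusted p = 0.0602), and Eif2a without Ltbr-/- replicate 2 (0.0631) or 3 (0.0835) or Ly5.1 replicate 1 (0.14), or after quantile normalization (0.0547). Both lost it without a filter or moderation (adjusted p of 0.135 to 0.152). The Argonaute genes Eif2c1, Eif2c2, Eif2c3 and Eif2c4, which act with miRNAs, had log2 fold changes from −0.25 to −0.05 and did not pass. The lowest, Eif2c1, passed as lower with the stricter filter (adjusted p = 0.0469), after quantile normalization (0.0437) and without Ly5.1 replicate 1 (0.0331). Eef2k, the kinase that inhibits eEF2, was at 2996 to 3510.0 against 3009.6 to 3199 (0.06, adjusted p = 0.683).

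Per kilobase of transcript the factors span a wide range of levels, and eEF1A leads in both groups. Eef1a1 was at a mean signal of 92990 per kb in Ltbr-/- and 64520 in Ly5.1, followed by Eef2 at 24360 and 19150, Eef1b2 at 20780 and 12180, and Eef1g at 15950 and 7985. The replicates of these 4 genes did not overlap, and their order was the same in both groups. Below them came Eif3k at 10420 and 6756 and Eif3f at 9618 and 4848, whose replicates overlapped in Ltbr-/- but not in Ly5.1. Eif3h followed at 6599 in Ltbr-/-, while in Ly5.1 Eif3i at 3826 stood above Eif3h at 3715. The cap-binding gene Eif4e stood far lower, at 90.7 and 86.2 per kb, beside Eif4g1 at 1870 and 1947 and Eif4a1 at 2249 and 1955. The signals do not hold counts, so these levels compare genes only as far as the regularized log keeps their ratios. Length was that of the longest annotated coding transcript of each gene. Whether these cells express that form was not tested, so the order of the genes depends on this choice.

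As a share of the summed signal of all rows, the members took 3.75%, 3.805% and 3.88% in Ltbr-/- and 3.13%, 3.10% and 3.20% in Ly5.1. eEF1 took 1.83% to 1.91% against 1.31% to 1.395%, and eIF3 0.703% to 0.746% against 0.576% to 0.592%. eIF4 took less, 0.340% to 0.342% against 0.388% to 0.412%. The shares of each of these groups were apart between the genotypes. The ribosomal protein genes, the translation machinery with the largest share, took 10.1% to 10.6% against 6.31% to 7.09%.

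The members known from textbooks as TOP mRNAs, Eef1a1, Eef1b2, Eef1d, Eef1g, Eef2, Eif3e, Eif3f, Eif3h and Eif4b, were compared with the other members. Of these 9 genes 8 rose, 5 were called higher and the median was 0.72, with only Eif4b at −0.03 (adjusted p = 0.85) not passing. Of the 54 tested members outside this list 15 rose, 2 were called higher (Eif3k and Eif4ebp1), 3 fell and the median was 0.07. Known TOP mRNAs that encode neither factors nor ribosomal proteins counted 11, of which 9 rose, and 3 were called higher, among them Gnb2l1 (the ribosomal scaffold RACK1) with 0.95 and Fau with 1.07. Their median was 0.49 and their lowest was Hnrnpa1 with 0.03. Fau encodes a ribosomal protein fused to ubiquitin-like sequence. The lists were chosen with earlier results known and are no independent evidence of their direction. The medians of both TOP lists stayed above 0 after quantile normalization, at 0.36 and 0.32, and lay at −0.16 and −0.39 when centred on the ribosomal protein genes.

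Other genes that act beside the factors were counted by list, and none of them was called past the fold threshold in either direction. Of 6 termination and recycling genes 1 fell, the recycling ATPase Abce1 (−0.26, adjusted p = 0.0367), and the highest was Pelo at 0.18 (adjusted p = 0.212). Of 8 genes of the poly(A)-binding protein and its regulators 1 rose, Pabpc1 itself (0.25, adjusted p = 0.00114), and the lowest was Larp1 at −0.15 (adjusted p = 0.246). Of 7 scanning and reinitiation helpers 1 fell, the helicase gene Ddx3x (−0.27, adjusted p = 0.018), with Mcts1 highest at 0.20 (adjusted p = 0.183). Of 9 enzymes that place hypusine on eIF5A or diphthamide on eEF2, 1 rose, the diphthamide gene Dnajc24 (0.26, adjusted p = 0.0497), while Dph1 was lowest at −0.25 (adjusted p = 0.0872). None of 6 genes of selenocysteine insertion passed, from Sepsecs at −0.17 to Sephs2 at 0.18. With 10.6% of all tested genes higher and 4.18% lower at the adjusted p, lists of 6 to 9 genes with 0 or 1 in a direction cannot be set apart from the background.

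The genes of translation in mitochondria were split as well, with 2 of 11 factor genes higher, Tsfm (0.35, adjusted p = 0.0145) and Mtif3 (0.32, adjusted p = 0.0153), and 9 not passing down to Gfm2 at −0.19. Of 14 tested genes of mTOR and MNK kinase input 1 rose and 1 fell. Ddit4, an inhibitor of mTOR, had 586, 559.8 and 628 against 470.0, 429 and 502, and rose by 0.34 (adjusted p = 0.00978). Rictor, of the second mTOR complex, had 769, 632 and 448 against 710.3, 818 and 769.8, overlapping through Ltbr-/- replicate 1, and fell by 0.35 (adjusted p = 0.0417). Of 9 tested genes of eIF2 dephosphorylation and its stress effectors 3 rose, Ppp1ca (0.24, adjusted p = 0.0183), Atf4 (0.29, adjusted p = 0.00334) and Ddit3 (0.31, adjusted p = 0.0376), and Impact, an inhibitor of GCN2 activation, fell by 0.30 (adjusted p = 0.0296). The medians of these 3 lists were −0.04, −0.08 and 0.04, against −0.01 for all tested genes.

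**Figure D5:**
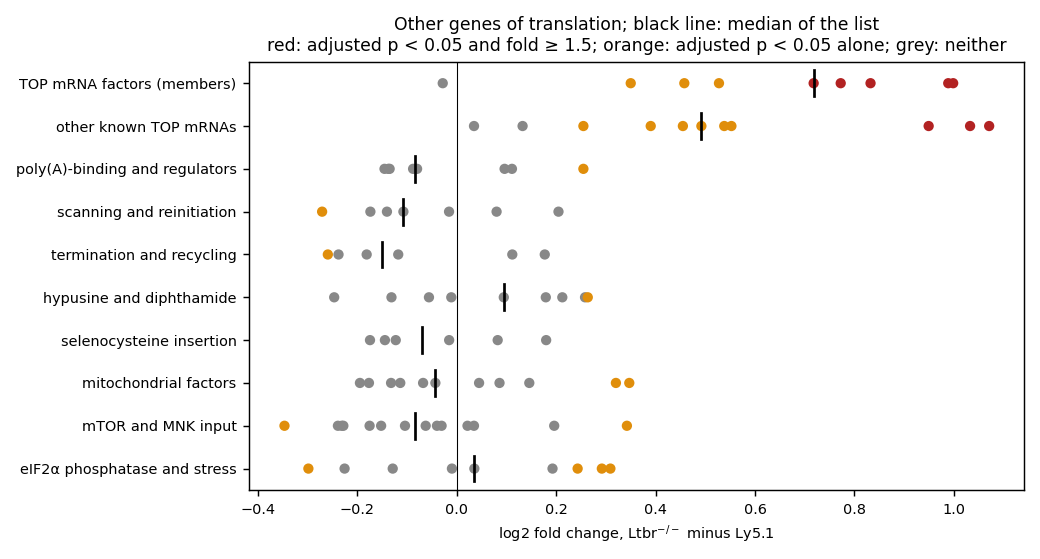
Log2 fold change (Ltbr-/- minus Ly5.1) of each tested gene in 10 lists of genes of translation, coloured by call as red (both thresholds), orange (adjusted p alone) or grey, with a black line at the median of each list. Calls past both thresholds appear in the first 2 lists, the TOP mRNAs, with medians of 0.72 and 0.49; centred on the ribosomal protein genes every gene moves down by about the same amount.

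Reads that fit more than a single gene bound the accuracy of some of these values. Of the 76-base windows of the transcript, 56.2% in Eef1g, 41.0% in Eef1a1, 62.8% in Eif4a1, 35.7% in Eif2s3x, 25.3% in Eif1 and 16.5% in Eif3h also occur in other genes. So do 37.7% in Eif3j, where Eif3j2 shares most, 22.2% in Eif2s2 and 20.7% in Eif3m. How the reads were divided is not given in the sources used here. The values of these genes are therefore uncertain, whereas Eif3f and Eif3k shared no window and Eef1b2, Eef1d and Eef2 shared 2.8%, 2.8% and 2.5%.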

How the data were processed

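RNA-seq libraries of LT/ST-HSCs were made from 20 ng of total RNA with a stranded poly(A) kit, 3 per genotype. Reads were assembled in SeqMan NGen and gene levels computed in ArrayStar by the authors, who deposited 1 signal for every gene in each sample. The methods name regularized log values and the submitters' processing notes name DESeq2 and the builds GRCm38 and mm10. From its values, the signal was taken as the antilog (base 2) of the regularized log. As no counts are held, the depth behind each sample is unknown and no interval or limit for counting error was computed.

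The log2 of the signal was fitted with limma 3.58.1 in R 4.3.3 (lmFit, eBayes with a trend) on the 13108 names (50%) with the highest mean, of 26216; of repeated symbols the row with the highest mean was kept. A gene was called at a Benjamini-Hochberg adjusted p under 0.05 over all tested genes with a fold of 1.5 or more, as in the study. The p-values measure the spread between pools. A single value compared by an exact permutation test of 3 against 3 could not reach below 0.1, so none is given. Members and lists were chosen with earlier results of these data known. Genes named are those called, the extremes and the most abundant of each factor, all repressors and kinases, paralogue pairs and the extremes of other lists; others were chosen after their values were seen. Positions and start regions came from RefSeq (GRCm38.p6) and transcripts from GENCODE M21; 67 members had a transcript, and reads shared between genes were estimated from windows of 76 bases. Some listed genes are counted but not reported by name here. Alternatives were a block for the replicate number, other filters, a pseudocount of 1, quantile normalization, centring on all tested or on 81 ribosomal protein genes, other moderation, a correction by loess for the length and GC of the transcript (span 0.5), a fold of 2, the mean of repeated symbols and leaving out each replicate.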

Additional observations from a re-analysis of the deposited data

How the results depend on the processing

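The 7 calls past both thresholds were kept in every fit without a replicate, without a filter, among the genes in the top of the range by mean, with a pseudocount of 1, with robust moderation and with the mean of repeated symbols. Quantile normalization left 4 called higher (Eef1g, Eif3f, Eif3h and Eif4ebp1) and 1 lower (Eif4g2), the correction for length and GC left 6 (all but Eif3k) and the model without moderation 6 (all but Eif4ebp1), and a fold of at least 2 left 0. Leaving out a replicate gave 7 to 8 called higher and 0 called lower. At the adjusted p alone, 14 members were higher without a filter and 10 without moderation, and 0 were lower in both; 5 were lower among the higher-expressed genes and 11 after quantile normalization. Leaving out a replicate gave 18 to 22 higher and 2 to 4 lower. Whether the replicate numbers shared by the groups pair the samples is not stated in the sources used here. Deviations of samples with the same number correlated at 0.031, −0.005 and 0.09, and those with different numbers at −0.074 to 0.045. With 3 samples a group such values cannot decide it. With the replicate number as a block 7 members were called higher, 24 were higher at the adjusted p (Eif4a1 added, adjusted p = 0.0369) and 3 lower.

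Centring each sample on the ribosomal protein genes left 0 members called higher or higher at the adjusted p, 41 called lower and 57 lower at the adjusted p, while the median of all tested genes moved to −0.89; the subtraction of an equal amount from every gene shows the cause. The medians then were −0.76 for all members, −0.55 for eIF1, −0.91 for eIF2, −0.72 for eIF2B, −0.44 for eIF3, −0.91 for eIF4, −0.79 for eIF5, −0.48 for eIF6, −0.14 for eEF1, −0.53 for eEF2, −0.68 for the Eif4ebp repressors and −1.11 for the Eif2ak kinases. Single members whose sign turned were Eef1a1 −0.35, Eef1b2 −0.11, Eef1d −0.16, Eef2 −0.53, Eef2k −0.82, Eif1 −0.51, Eif1a −0.81, Eif1ad −0.52, Eif1ax −0.56, Eif1b −0.54, Eif2a −0.61, Eif2b1 −0.88, Eif2b2 −0.56, Eif2b3 −0.72, Eif2b4 −0.67, Eif2b5 −0.76, Eif2d −0.47, Eif2s1 −0.66, Eif2s2 −0.77, Eif3b −0.88, Eif3c −0.87, Eif3d −0.44, Eif3e −0.42, Eif3g −0.37, Eif3h −0.049, Eif3i −0.44, Eif3k −0.26, Eif3l −0.75, Eif3m −0.46, Eif4a1 −0.68, Eif4a3 −0.68, Eif4e −0.81, Eif4e2 −0.55, Eif4ebp1 −0.11, Eif4ebp3 −0.68, Eif4h −0.88, Eif5a −0.72, Eif5b −0.79 and Eif6 −0.48. Quantile normalization turned Eef2 to −0.23 and Eif3c to −0.27, and the cause was not tested.

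Other medians moved by more than the spread between replicates. For all members the median was 0.095 without a filter, 0.16 among the higher-expressed genes, 0.059 after quantile normalization and 0.092 after correction for length and GC. Quantile normalization gave 0.29 for eIF3, 0.0071 for eIF5 and 0.40 for eEF1. The length and GC correction gave 0.20 for eIF1, 0.31 for eIF3, 0.035 for eIF5, 0.28 for eIF6, −0.014 for the Eif4ebp repressors and −0.18 for the Eif2ak kinases. The stricter filter gave 0.11 for eIF2 and 0.77 for the Eif4ebp repressors, where fewer genes remained. Without a replicate the medians ranged over 0.11 to 0.14 for all members, 0.12 to 0.19 for eIF2B, 0.37 to 0.47 for eIF3, −0.037 to 0.007 for eIF4 (above 0 without Ly5.1 replicate 1), 0.056 to 0.16 for eIF5 (highest without Ltbr-/- replicate 1) and −0.27 to −0.19 for the Eif2ak kinases. The eIF2 median ranged over −0.062 to 0.014. Depth is unknown and sets no limit that could be computed here; precision rests on 3 replicates a group.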

Other observations

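Spread between replicates differed between the groups. The median coefficient of variation of a tested member was 4.19% in Ltbr-/- and 7.18% in Ly5.1, and the largest were 20.6% for Eif2ak2 in Ltbr-/- and 15.2% for Eif4e3 in Ly5.1. Ratios of Eif4g2 to Eif4g1 within a sample were 1.01 to 1.08 in Ltbr-/- and 1.16 to 1.36 in Ly5.1, apart between the groups; like the other ratios they were chosen after the values were seen and carry no test.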
